A study of Mus musculus with 6 samples.

Results

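Retinoic acid, the active form of vitamin A, is made, bound, sensed and broken down by a small set of proteins, and 9 of their genes were followed here on 6 arrays: Rbp4 and Stra6 (transport and uptake), Rdh10, Aldh1a1 and Aldh1a2 (synthesis), Crabp1 and Crabp2 (binding inside the cell), Cyp26b1 (breakdown) and Rara (receptor). Every probe set whose platform gene symbol was 1 of these 9 was taken, which gave 10 of the 45101 probe sets on the array. Rdh10 had 2 probe sets and the other 8 genes 1 each. The 9 genes had been chosen from results of these same arrays, with their tumor and wild-type signals known. Their differences between the groups are therefore a description, and no p-value is given for them.

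The study set granulosa cell tumors of Smad1/5/8 mutant mice (3 samples, from different tumors) against wild-type granulosa cells (3 samples). Smad1, Smad5 and Smad8 carry the signal of bone morphogenetic protein (BMP) receptors to the nucleus. The wild-type cells came from female C57BL/6J;129S5/SvEvBrd mice aged 21 days, 44 to 46 hours after an injection of pregnant mare serum gonadotropin (PMSG), and each sample was a pool of 2 to 3 females. The labels state no treatment for the tumors. For the tumor mice, the strain, the age, the sex and the promoter or cell type in which the Smad genes were mutated were all not given in the sources used here. Tumor tissue was thus set against isolated, hormone-primed cells. The tissue, the priming, the storage of the tumors in an RNA preservative and the software that made the signals differed along with the genotype, and cannot be told apart from it.

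Retinol travels in blood on retinol-binding protein and can enter cells through the receptor STRA6. Retinol dehydrogenases oxidise it to retinal, and retinaldehyde dehydrogenases oxidise retinal to retinoic acid. In the cell, retinoic acid is bound by cellular retinoic acid-binding proteins, acts through nuclear receptors that pair with retinoid X receptors on DNA, and is inactivated by CYP26 enzymes. In the fetal ovary, retinoic acid is known for its part in the entry of germ cells into meiosis.

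Signals are linear array intensities on arrays scaled to a trimmed mean of 500, and values of 3 samples are given in the order of replicates 1, 2 and 3. A signal below 100 is treated as too dim to measure a level. A gene was tested if at least 3 of the 6 arrays reached 100, and 11611 genes were. Between 22599 and 25057 probe sets reached 100 on an array. Changes, and the amounts by which genes rose or fell, are tumor minus wild type in log2(signal + 32), with the limma standard error (SE); the added 32 shrinks the change of dim genes. "Called" means that limma gave p under 0.05 after Benjamini-Hochberg adjustment across the tested genes. Of all tested genes, 27.2% were called: 1686 (14.5%) higher and 1468 (12.6%) lower in tumors. With arrays scaled to their medians the split was 1733 higher and 915 lower. Scaled to the bacterial hybridisation controls, whose signals were higher on tumor arrays, it was 364 and 7879, and the median of all genes moved to -1.02. RNA quality was read from the Actb control as the log2 of 3' over 5' signal, which averaged 0.808 ± 0.21 in tumors against 0.446 ± 0.193 in the wild type (SD, n = 3 each). The same ratio of the Gapdh control was -0.365 ± 0.113 in tumors and -0.391 ± 0.0656 in the wild type. Whether RNA quality contributed to any difference below was not tested. Nothing says that the 3 samples of a group were processed independently, so the spread between them may be partly technical.

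The 9 genes did not move together. Crabp2 was far lower in tumors, Rbp4 and Stra6 were higher, and Rdh10, Aldh1a1, Aldh1a2 and Rara had tumor and wild-type signals that overlapped at the probe set standing for the gene. Crabp1 and Cyp26b1 were too dim to test. Of the 7 tested genes, 2 were called higher and 1 lower, beside 27.2% called among all tested genes. The groups did not overlap in the same 3 genes, beside 46.3% of all tested genes (23.7% with tumors above and 22.6% with tumors below). Because the 9 genes were chosen with this contrast in view, these shares carry no weight as evidence.

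**Figure D1:**
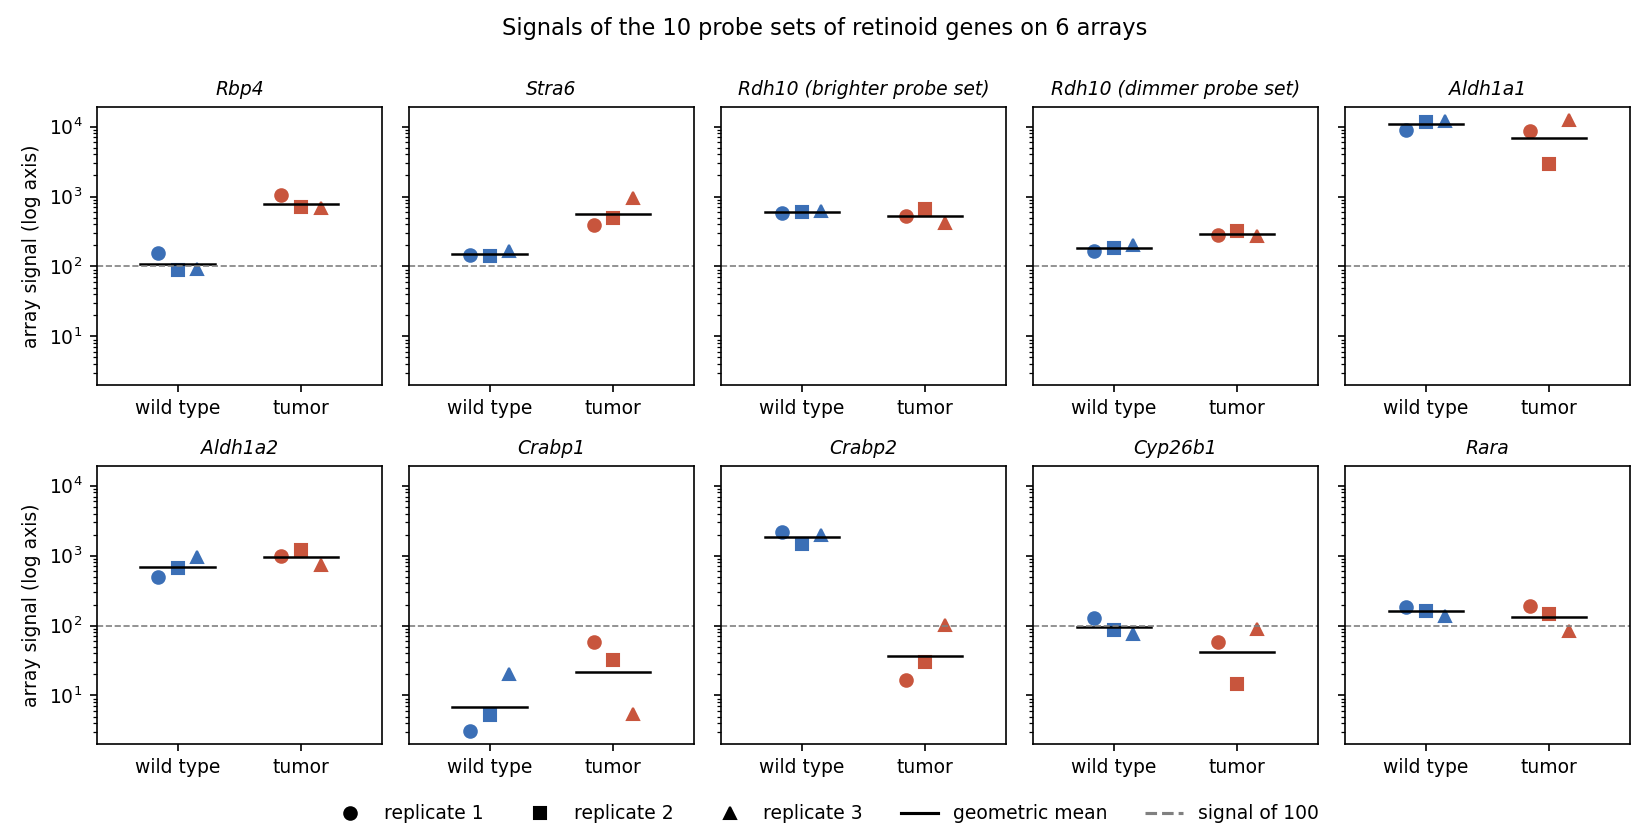
Array signal (log axis) of the 10 probe sets of the 9 genes, with a symbol for each replicate, a bar at the geometric mean of each group and a dashed line at a signal of 100. Crabp2 lies between 1459 and 2211 in wild-type samples and at or below 101 in tumors, Rbp4 and Stra6 have all 3 tumors above all 3 wild-type samples, and Crabp1 stays below 100 on every array.

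Rbp4, the gene of the retinol carrier of blood plasma, read 157, 89.8 and 92.6 in wild-type samples but 1035, 715 and 677 in tumors. Every tumor was above every wild-type sample, and 2 of the 3 wild-type arrays lay below 100. Rbp4 thus passed the filter mostly through the tumors, and its call was partly set by the filter. The mean rose from 113 ± 38.1 to 809 ± 197 (SD, n = 3 per group), a log2 change of 2.54 (SE 0.24). With the dim wild-type arrays set to 100, the tumors were at least 6.83-fold higher. The log2 SD was 0.32 among tumors, above that of 65.9% of tested genes, and 0.36 among wild-type samples, above that of 82.7%.

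Mouse Rbp4 has 2 annotated start regions in the RefSeq promoter table (GRCm38.p6), whose windows run from 250 bases before to 50 after a start. The 250 bases before the outer start are shown because Rbp4 is the gene with the largest rise among the 9. This choice was made after the values were seen. The capitals mark TGACCC, which reads GGGTCA on the opposite strand and is a half-site of the kind that retinoic acid receptors and related nuclear receptors bind.
Rbp4, chr19:38125322-38125571, minus strand: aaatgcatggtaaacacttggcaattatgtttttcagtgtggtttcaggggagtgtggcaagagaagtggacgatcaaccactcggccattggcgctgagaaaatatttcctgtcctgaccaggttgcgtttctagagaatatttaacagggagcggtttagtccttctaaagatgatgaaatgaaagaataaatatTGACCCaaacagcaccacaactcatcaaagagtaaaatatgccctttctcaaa
At the inner start, a TATA motif (capitals) lies at positions -28 to -23, counted from the start, in this stretch.
Rbp4, chr19:38124827-38124846, minus strand: ccggagcTATAAAggaccga

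Receptors of retinoic acid bind pairs of half-sites, so the windows were searched on both strands for 2 half-sites (AGGTCA, or its variant AGTTCA, or GGGTCA, or GGTTCA) in the same direction with 1, 2 or 5 bases between them. The table held 15 windows for 7 of the 9 genes. None of these windows held such a pair, a motif present in 0.222%, 0.268% and 0.0974% of all 32851 windows for spacers of 1, 2 and 5 bases. This says only that these letters are not in these windows. A single half-site occurred in 5 windows of 4 genes (Rbp4, Aldh1a1, Stra6 and Rara), beside 43.7% of all windows. The element GGCGCC, to which BMP-activated Smads can bind and which reads the same on both strands, occurred in the windows of Crabp1 and Aldh1a2, beside 11.9% of all windows. TATAAA occurred in windows of Rbp4 and Cyp26b1, beside 13.6%.

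Stra6, the membrane receptor gene for retinol-binding protein, whose name records its stimulation by retinoic acid in cultured cells, read 148, 142 and 167 in wild-type samples but 395, 487 and 961 in tumors. All 3 tumors were above all 3 wild-type samples; tumor 3 was the highest. The mean went from 152 ± 13.0 to 614 ± 304 (SD, n = 3 per group), a log2 change of 1.72 (SE 0.31). Wild-type samples were close together (log2 SD 0.10) and tumors were not (0.64, above that of 91.1% of tested genes). Scaled to the hybridisation controls, Stra6 had a log2 change of 0.75 and was no longer called, under a scaling that moved the median of all genes to -1.02. Rbp4 remained called there, at 1.60. Rbp4, carrier of retinol, and Stra6, its receptor, were thus both higher in each tumor, but in different proportions: tumor 1 had the highest Rbp4 and the lowest Stra6 signal of the 3.

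Rdh10 encodes the dehydrogenase that makes most retinal from retinol in the mouse embryo. Its brighter probe set read 581, 601 and 619 in wild-type samples and 519, 658 and 418 in tumors. The groups overlapped, with a log2 change of -0.19 (SE 0.18). Wild-type samples differed less than in most genes: only 4.81% of tested genes had a smaller wild-type log2 SD than its 0.04. The dimmer probe set read 165, 183 and 206 against 278, 320 and 277, so every tumor lay above every wild-type sample, with a log2 change of 0.58 (SE 0.15). It was called when each of 21001 probe sets was tested on its own, beside 24.1% of all probe sets. The 2 probe sets therefore gave different descriptions of Rdh10. Which parts of the transcript they match was not analysed here.

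Aldh1a1, a retinaldehyde dehydrogenase gene, read 8961, 11700 and 12090 in wild-type samples and 8643, 2952 and 12460 in tumors. Tumor 2 was well below the other tumors, while tumor 3 had the highest signal of the 6 arrays. The log2 change was -0.66 (SE 0.49) and the gene was not called. Its log2 SD among tumors, 1.07, was above that of 98.1% of tested genes, against 0.24 in wild-type samples. Aldh1a2, the gene of the retinaldehyde dehydrogenase that the early embryo depends on, read 502, 676 and 946 in wild-type samples and 992, 1206 and 739 in tumors. The groups overlapped (log2 change 0.47, SE 0.27), and tumor 2, the lowest for Aldh1a1, was the highest for Aldh1a2.

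The promoter windows of the 2 genes differ in the motifs they hold. Aldh1a1 has a half-site at positions -49 to -44 of 1 of its 2 annotated starts, on the opposite strand, and Aldh1a2 has 2 copies of GGCGCC, at -243 to -238 and -102 to -97. The capitals mark the half-site and GGCGCC.
Aldh1a1, chr19:20601912-20601931, plus strand: atgcaaaTGACCCttagtgc
Aldh1a2, chr9:71215539-71215558, plus strand: cggctcgGGCGCCtctcctc
Aldh1a2, chr9:71215680-71215699, plus strand: ccgtgcgGGCGCCgcgcgcg

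Crabp2, which delivers retinoic acid to its nuclear receptor, was the gene with the largest difference among the 9. It read 2211, 1459 and 1951 in wild-type samples and 16.8, 30.1 and 101 in tumors. The groups lay far apart, and in tumors 1 and 2 the signal was too dim to measure. Crabp2 thus passed the filter mostly through the wild-type samples, and its call was partly set by the filter. The mean fell from 1874 ± 382 to 49.1 ± 45.0 (SD, n = 3 per group), a log2 change of -4.67 (SE 0.37). Because the tumor signals are dim, the size depends on the pseudocount: it was -5.59 with 1 and -3.75 with 100. With the dim tumor arrays set to 100, wild-type samples were at least 18.4-fold higher.

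Crabp1, its relative that binds retinoic acid in the cytosol, was below 100 on all 6 arrays, at 3.1, 5.2 and 20.2 in wild-type samples and 58.8, 32.2 and 5.4 in tumors. No level can be read from these signals. In tumors 1 and 2 both binding protein genes were thus below 100, and in tumor 3 Crabp2 was at 101. The window of Crabp1 holds GGCGCC at positions -95 to -90, shown in capitals.
Crabp1, chr9:54764646-54764665, plus strand: ggtgaggGGCGCCttagggc

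Cyp26b1, a cytochrome P450 gene whose enzyme inactivates retinoic acid, reached 100 on 1 array only. It read 127, 87.6 and 76.2 in wild-type samples and 58.3, 14.5 and 87.9 in tumors. The groups overlapped, and the gene was not tested. Its upstream sequence is shown because it was the gene set aside for this purpose should no called gene hold a pair of half-sites. Only the 152 bases before the gene's outermost annotated end are given, which is upstream of the start used in the promoter table. The capitals mark a TATA motif, at positions -139 to -134 of the table's start.
Cyp26b1, chr6:84593909-84594060, minus strand: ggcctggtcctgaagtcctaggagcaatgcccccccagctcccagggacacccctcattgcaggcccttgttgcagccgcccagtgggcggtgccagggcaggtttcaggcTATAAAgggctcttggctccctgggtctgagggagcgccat

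Rara, the gene of retinoic acid receptor alpha, read 187, 161 and 135 in wild-type samples and 189, 146 and 84.5 in tumors. The groups overlapped and the log2 change was -0.21 (SE 0.25). Signals this close to 100 could hide a small difference.

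The other genes of the pathway were listed by their known roles, though with earlier results of these data known. Their differences were tested, but the list, its counts and its shares are not independent of those results. Of 72 listed genes, 65 were on the array by a single symbol and 36 could be tested. Of these, 11 were higher and 6 lower in tumors and 19 were not called, 47.2% called beside 27.2% of all tested genes. Their median log2 change was 0.17, beside a median over all tested genes of -0.005. Without the genes listed only for responding to retinoic acid, the counts were 6 higher, 6 lower and 16 not called of 28, with a median of 0.05. Dhrs3, which is also listed as an oxidoreductase, was kept among these. Of the 17 called genes, 6 were called in each of the 6 fits that left out 1 sample (Rbp7, Adh5, Cyp2s1, Fabp5, Tgm2 and Meis2) and 11 were not. Leaving out wild-type replicate 1 gave 4 higher and 2 lower, wild-type replicate 2 gave 7 and 3, and wild-type replicate 3 gave 6 and 3. Over all tested genes the same fits gave, in that order, 866 and 662, 1299 and 1006, and 1092 and 880. Leaving out tumor replicate 1 or 2 gave 3 lower each, beside 1171 and 1046 over all tested genes. The highest counts of the 6 fits were 10 higher and 6 lower, without tumor replicate 3, beside 1704 and 1409 over all tested genes.

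**Figure D2:**
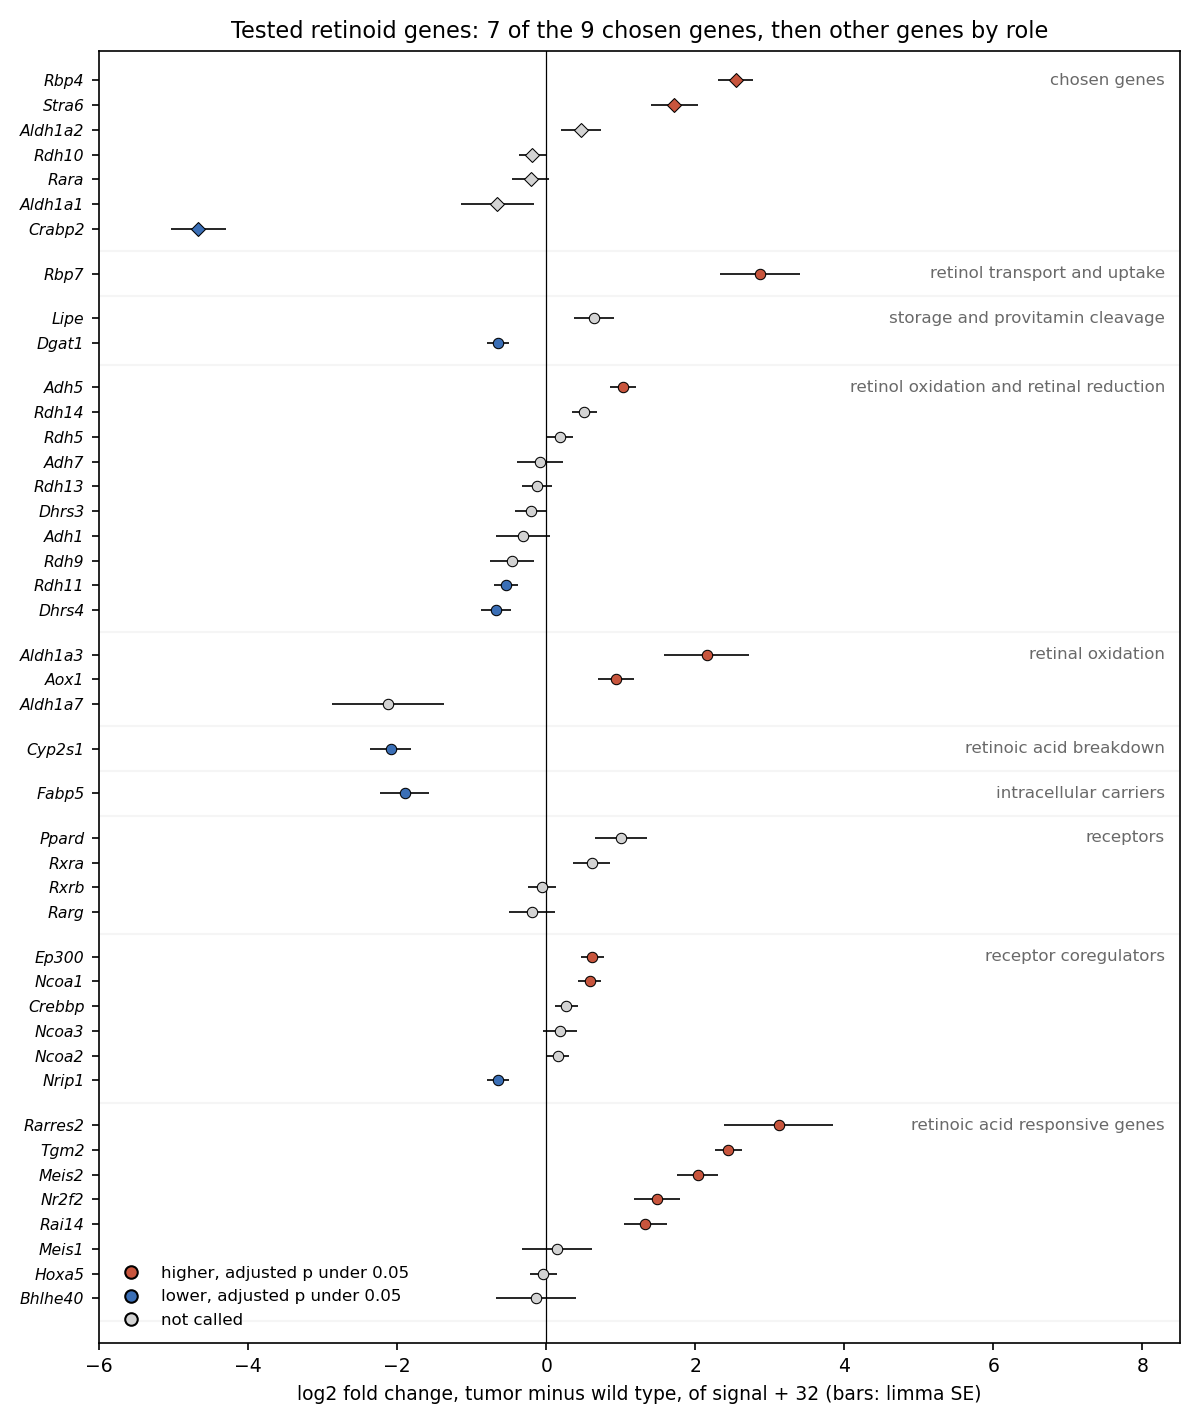
Log2 fold change of signal + 32, tumor minus wild type, with limma SE bars, for the 7 tested genes of the 9 (diamonds) and the 36 other tested retinoid genes by role (circles; Dhrs3, which is on 2 lists, is drawn once). Colours mark calls at an adjusted p under 0.05, which are a description for the 7 genes, and the responsive genes are the group with 5 genes called higher and 0 lower.

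Among carriers of retinol, Rbp7, a cellular retinol-binding protein gene, was the only 1 tested of 6 on the array. It read 22.2, 15.4 and 18.6 in wild-type samples and 263, 150 and 919 in tumors, at least 3.31-fold higher. Rbp7 passed the filter only through the tumors, where it is high, so its call, 1 of the 11, was largely set by the filter. All 3 tumors lay above the wild-type samples, tumor 3 by the most. The plasma carrier gene Ttr and the Stra6 relative Stra6l were below 100 on every array.

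Of 2 tested genes of storage, 1 was lower and 1, Lipe, not called. Dgat1, an acyltransferase gene of triglyceride and retinyl ester formation, fell by 0.65 (SE 0.15, limma adjusted p = 0.0214), from a mean of 1023 to 644. Of 10 tested oxidoreductase genes, Adh5 rose, Rdh11 and Dhrs4 fell, and 7 were not called. Adh5, better known for the metabolism of glutathione adducts, read 5773, 6192 and 6264 against 10650, 11590 and 15480, a log2 change of 1.03 (SE 0.18, limma adjusted p = 0.00723). Rdh11 fell by 0.54 (SE 0.16, limma adjusted p = 0.0459) and Dhrs4 by 0.68 (SE 0.20, limma adjusted p = 0.0404). Dgat1 was no longer called when wild-type replicate 1, 2 or 3 or tumor replicate 2 was left out (adjusted p up to 0.0733). Rdh11 lost it without any sample but wild-type replicate 2 (up to 0.154), and Dhrs4 without wild-type replicate 1 or 2 or tumor replicate 1 or 2 (up to 0.135). Dhrs3, which turns retinal back to retinol and is a known target of retinoic acid, had a log2 change of -0.21 (SE 0.21, limma adjusted p = 0.503).

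Of the other genes for oxidation of retinal, Aldh1a3 and Aox1 rose. Aldh1a3, another retinaldehyde dehydrogenase gene of the family, read 55.8, 7.8 and 115 in wild-type samples and 381, 149 and 562 in tumors, a log2 change of 2.15 (SE 0.57, limma adjusted p = 0.0313). With the 2 dim wild-type arrays set to 100 it was at least 3.03-fold higher. It passed the filter mostly through the tumors, so its call was partly set by the filter. Aox1, an aldehyde oxidase gene, rose by 0.94 (SE 0.24, limma adjusted p = 0.0288). Aldh1a3 lost its call without wild-type replicate 1 or 2 or tumor replicate 1 or 3, with adjusted p up to 0.0833. Aox1 lost it without any sample but tumor replicate 2 (up to 0.104). Aldh1a7, a close copy of Aldh1a1, read 1669, 1734 and 1605 in wild-type samples and 308, 96.2 and 1341 in tumors, and did not pass (log2 change -2.12, SE 0.75, limma adjusted p = 0.0762). Every tumor was below every wild-type sample, and without tumor replicate 3 Aldh1a7 passed (limma adjusted p = 0.00437). It passed in none of the other fits without 1 sample (0.135 to 0.169). Probe sets of near-identical genes can pick up each other's transcripts, so the values of Aldh1a1 and Aldh1a7 may not be separate measurements.

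Of the further genes of breakdown and binding, Cyp2s1 and Fabp5 fell. Cyp2s1, a cytochrome P450 gene listed for its activity on retinoic acid, read 2199, 2684 and 1884 against 460, 744 and 362, a log2 change of -2.09 (SE 0.27, limma adjusted p = 0.00269). Cyp26a1, the best known gene of breakdown, was below 100 on every array and Cyp26c1 had no probe set named here. Fabp5, a fatty acid-binding protein gene that can carry retinoic acid to the receptor PPAR-delta, read 12470, 13320 and 14020 against 1999, 4542 and 4852, a log2 change of -1.90 (SE 0.33, limma adjusted p = 0.00753). Both genes thus had lower signals in all 3 tumors, as did Crabp2.

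None of the 4 other tested receptor genes was called. The smallest p was that of Ppard, the gene of PPAR-delta, at 119, 144 and 117 against 502, 284 and 156 (log2 change 1.00, SE 0.35, limma adjusted p = 0.0753). Ppard passed without tumor replicate 3 (limma adjusted p = 0.0119) but in none of the other fits without 1 sample (0.129 to 0.182). Rxra, Rxrb and Rarg, with adjusted p of 0.111, 0.856 and 0.672 in limma, overlapped between the groups. Rarb, itself a known target of retinoic acid, was not tested, at 86.8, 72.8 and 100 in wild-type samples and 33, 50.8 and 5.33 in tumors.

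Of 6 tested coregulators of nuclear receptors, 2 were higher, 1 lower and 3 not called. Ep300 rose by 0.62 (SE 0.15, limma adjusted p = 0.0254) and Ncoa1 by 0.58 (SE 0.16, limma adjusted p = 0.0375), and Nrip1, a corepressor gene with a known need in ovulation, fell by 0.65 (SE 0.15, limma adjusted p = 0.0203). The other 3 tested, Ncoa2, Ncoa3 and Crebbp, were not called. Each of the 3 calls was lost without some samples: Ep300 without wild-type replicate 1 or 3 or tumor replicate 1 or 2 (adjusted p up to 0.102), Ncoa1 without any sample but tumor replicate 1 (up to 0.106), and Nrip1 without 1 of the wild-type samples or tumor replicate 1 (up to 0.0627). Scaled to the hybridisation controls, Ep300 and Ncoa1 turned to -0.43 and -0.47, and Adh5 to -0.04.

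Of 24 genes listed for responding to retinoic acid, 9 were tested: 5 rose, 0 fell and 4 were not called, beside 14.5% and 12.6% of all tested genes. Their median log2 change was 1.33. Rarres2, the gene of chemerin, read 1385, 1876 and 1577 in wild-type samples and 23050, 32180 and 3805 in tumors, a log2 change of 3.12 (SE 0.73, limma adjusted p = 0.0202). Tumors 1 and 2 carried most of that rise, and tumor 3 was the lowest of the 3. Tgm2, a transglutaminase gene, read 407, 562 and 418 against 2992, 2478 and 2440, a log2 change of 2.44 (SE 0.18, limma adjusted p = 0.000371). Meis2, a homeobox gene, read 56.7, 76.7 and 140 against 359, 473 and 546 (log2 change 2.03, SE 0.28, limma adjusted p = 0.00315). With the 2 dim wild-type arrays set to 100 it was at least 4.04-fold higher. Because 1 wild-type array alone reached 100, Meis2 passed the filter mostly through the tumors, and its call was partly set by the filter.

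Nr2f2, the gene of the nuclear receptor COUP-TFII, rose by 1.49 (SE 0.31, limma adjusted p = 0.0144) and Rai14 by 1.33 (SE 0.29, limma adjusted p = 0.0172). Rarres2 was no longer called once 1 of the wild-type samples or tumor replicate 1 was left out (adjusted p up to 0.0705), Nr2f2 without wild-type replicate 1 (0.0567), and Rai14 without wild-type replicate 1 or 3 (up to 0.0681). Hoxa5, Meis1, Bhlhe40 and Dhrs3 were not called. Cyp26a1, Hoxa2, Hoxa4, Hoxb1, Hoxb5, Rarres1 and Cdx1 were below 100 on every array. Tgm2 and Nr2f2 are also known from endothelial and stromal cells.

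Many markers of stromal and immune cells were higher in tumors. All 9 fibroblast, 8 smooth muscle and pericyte, and 10 macrophage genes were called higher, as were 5 of 9 endothelial genes. Beside these and the marker counts below stand 14.5% of all tested genes called higher and 12.6% called lower. The summed signal of the fibroblast list was 13890 to 16990 in wild-type samples and 49540 to 71200 in tumors, that of the smooth muscle list 4233 to 5474 and 15730 to 28760, that of the endothelial list 1484 to 2086 and 5526 to 11990, and that of the macrophage list 2194 to 2571 and 12960 to 15530. No gene of these 4 lists was below 100 on every array, and Des, Cspg4, Vwf and Fcgr1 passed the filter only through the tumors, as did Gli1 of the theca list. Cnn1 and Tie1 passed the filter mostly through the tumors. Fibroblast Postn rose by 3.57, pericyte Rgs5 by 3.73, macrophage C1qc by 3.50 and endothelial Sox18 by 2.81 on the log2 scale. Of 10 surface epithelium genes, 0 were higher and 1, Upk3b, lower, with sums of 4188 to 6282 and 2837 to 5311. Oocyte sums were 1003 to 1627 and 449 to 525. All 5 tested oocyte genes were called lower, but Zp1, Zp2, Zp3 and Dazl passed the filter only through the wild-type samples, which largely fixed that direction, while Bmp15 and Ddx4 were below 100 on every array.

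Defining granulosa markers had high signals in both groups: Foxl2 had means of 10680 in wild-type samples and 7546 in tumors, and Inha of 42810 and 32380. Neither was called, though all 3 tumors lay below the wild-type samples in both, and Fshr fell by 3.23. Of 8 tested granulosa genes, 1 was higher (Amh, log2 change 2.0), 2 lower (Fshr, and Fst at -0.99) and 5 not called. The summed signal of the granulosa list was 105600 to 117800 in wild-type samples and 66170 to 84970 in tumors. Of 4 theca genes, 2 were higher (Gli1 at 3.03 and Ptch1 at 2.47) and 1, Cyp17a1, lower, with a log2 change of -4.85. Cyp17a1 read 5950, 2179 and 4717 in wild-type samples and 290, 101 and 29.5 in tumors. Of 5 tested Sertoli genes, 1 was higher (Ptgds at 3.65) and 1 lower (Dhh at -0.79). Sums of the lymphoid list were 129 to 188 in wild-type samples and 548 to 9142 in tumors. Of its genes, Cd3e was below 100 on every array and Cd79a reached 100 in 1 tumor. The 2 tested genes of the list, Ptprc and Ighm, passed the filter only through the tumors, so their calls as higher were largely set by it. Ighm read 8275, 134 and 1209 in tumors. In such bulk RNA, fewer cells of a type and less RNA per cell cannot be told apart. The part of these cell types in the differences of Crabp2, Rbp4, Stra6 and the other retinoid genes was not tested.

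**Figure D3:**
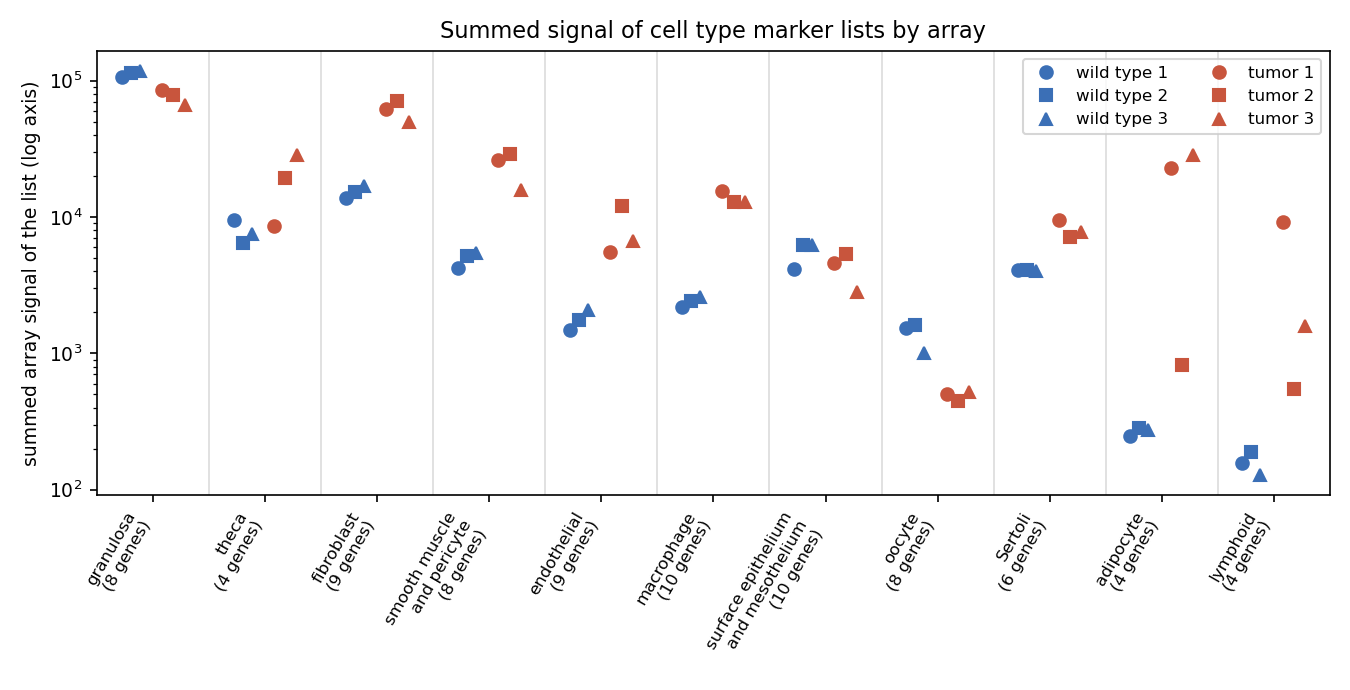
Summed array signal (log axis) of each cell type marker list on each array, with the number of genes on the array under each list's name; sums of different lists are not comparable with each other. Fibroblast, smooth muscle, endothelial and macrophage sums are higher in all 3 tumors, and the adipocyte sum is 22750 in tumor 1, 823 in tumor 2 and 28290 in tumor 3 against 248 to 286 in wild-type samples.

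The tumors differed from each other in markers of fat cells, which handle much vitamin A. Adipoq read 2.1, 25.3 and 17.8 in wild-type samples and 8446, 52.6 and 8410 in tumors. Fabp4 read 85.8, 156 and 85.8 against 12180, 746 and 18320, and Retn 149, 87.0 and 94.5 against 1912, 14.0 and 1450. Tumors 1 and 3 thus had high signals of all 3 genes, while tumor 2 was below 100 in Adipoq and Retn but above the wild-type samples in Fabp4. Lep, also on the list, reached 100 in tumors 1 (215) and 3 (108) alone.

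Aldh1a1, Aldh1a7, Aldh1a3 and Rbp7 were each lowest in tumor 2 among the tumors and highest in tumor 3. Of the other tested retinoid genes, Rdh11, Rai14, Hoxa5 and Ncoa2 had this order too, and the rest did not. It is also the order of Fabp4, while Adipoq, Retn and Lep were highest in tumor 1. With 3 tumors such an order is a description, and a link between these genes and the fat cell markers was not tested. Stra6, Rbp4 and Crabp2 had other orders. With tumor 2 as the only tumor, a comparison added after the values were seen that assumes tumor 2 to vary as the other samples do, the log2 changes were 2.39 for Rbp4, 1.50 for Stra6 and -4.92 for Crabp2. Aldh1a1, lowest in this tumor, was at -1.86. These values are a description. In the same comparison Rbp7 was at 1.85 and Aldh1a3 at 1.18.

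**Figure D4:**
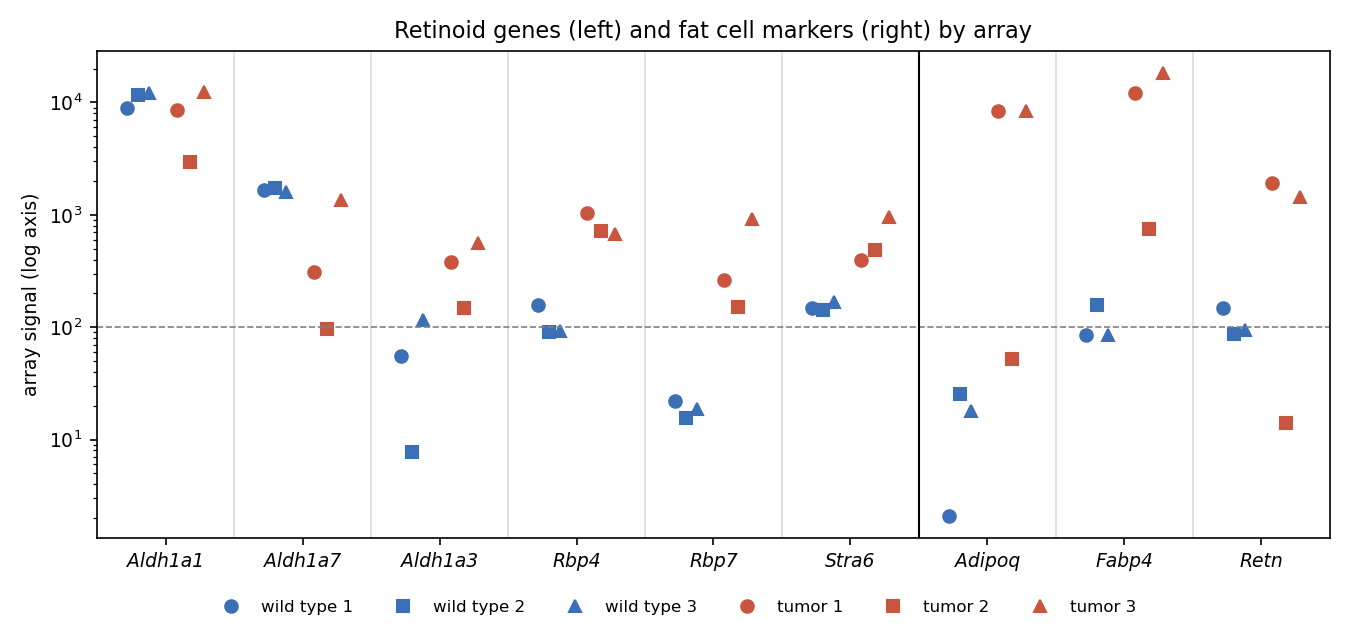
Array signal (log axis) of 6 retinoid genes (left of the black line) and 3 fat cell markers (right) on each array, with a dashed line at a signal of 100. Adipoq is at 8446 and 8410 in tumors 1 and 3 and at 52.6 in tumor 2, where Aldh1a1 (2952) and Aldh1a7 (96.2) are lowest while Rbp4 (715) and Stra6 (487) stay above all wild-type samples.

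For the 3 called genes among the 9, the tested genes with the most similar course over the 6 arrays were sought by the root mean square difference between log2 profiles, each centred on its own mean. Nearest to Crabp2 were Gabrb2 (0.34), a subunit gene of the GABA-A receptor, Fam162b (0.39) and Masp1 (0.41), a complement protease gene. Gabrb2 read 2593, 1508 and 3374 in wild-type samples and 54.2, 38.4 and 95.6 in tumors, so all 3 tumor signals were too dim to order. Nearest to Rbp4 were Nr3c1 (0.17), the glucocorticoid receptor gene, Rassf9 (0.19) and Matn2 (0.20), a matrix gene. Nr3c1 read 406, 314 and 269 against 2709, 1453 and 1451, with tumor 1 the highest, as in Rbp4. Nearest to Stra6 were Pank1 (0.13), a kinase gene of coenzyme A synthesis, Rpgrip1 (0.13) and Cela3b (0.18). Pank1 read 1950, 1760 and 2006 against 3606, 5314 and 11000 and shared the order of the 3 tumors with Stra6. With 6 arrays in 2 groups, likeness of this kind rests mainly on the group difference.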

How the data were processed

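Each of 6 mouse RNA samples was hybridised to 1 Affymetrix array. The deposited values are linear intensities, 1 signal per probe set, made with MAS5 (wild type) and GCOS (tumor), per the submitters' processing notes, with no version given. No detection calls were used here. The 2% trimmed mean of every array was 500 as deposited, and scaling to it was repeated. Gene names came from GEO's platform annotation, updated through Entrez identifiers with the RefSeq table of GRCm38.p6, which changed 0 symbols: of 45101 probe sets, 34945 had 1 symbol, 932 several, 9160 none, and 64 were controls. Probe sets with several or no symbols were left out. A gene was represented by its brightest probe set among those passing the filter (a signal of at least 100 on 3 or more arrays). The comparison used limma 3.58.1 (R 4.3.3; lmFit, eBayes, 2-sided) on log2(signal + 32). The fit was tested on simulated data.

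The 9 genes and all lists were chosen with earlier results of these data known. Named genes are the 9 and the other retinoid genes that were called or, in a role with none, had the smallest p. Some of the marker genes with the largest changes in their lists are named. So are the 3 genes most like each called gene of the 9. Genes beyond these (Lep, Dhrs3, Ttr, Aldh1a7, Foxl2, Inha and other members of the lists) were named after their values were seen. "At least" folds compare the brighter group's mean log2 signal with the dimmer group's, each array set to no less than 100. Promoter windows were searched with Python 3.11.15 and pandas 2.3.3; figures were drawn with matplotlib 3.10.9. The number of arrays, 3 per group, limits every value. The alternatives are named in the closing section.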

Additional observations from a re-analysis of the deposited data

How the results depend on the processing

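The comparison was repeated under 18 alternatives: 2 pseudocounts (1 and 100), no filter and a filter at 200, quantile, median and hybridisation control scaling, the mean over a gene's probe sets, a replicate block, 6 fits without 1 sample, tumor 2 as the only tumor (added after the data were seen), trend and robust settings, and array weights. Among the 9 genes, 2 higher and 1 lower were called in all but 2 of them: 1 and 5 with hybridisation control scaling, and 2 and 2 with tumor 2 alone. Counts over all genes were 364 higher and 7879 lower with hybridisation control scaling, 915 lower with median scaling and 904 lower with tumor 2 alone; without 1 sample they ran from 866 to 1704 higher and from 662 to 1409 lower, moving by over 1.5 times without wild-type replicate 1 (the lowest counts) or 3 (1092 and 880). For the other retinoid genes they were 4 and 19 with hybridisation control scaling, 7 higher with tumor 2 alone, and 2 lower with no filter and with median scaling; without 1 sample 4 to 10 higher and 2 to 6 lower. The causes were not tested. Under hybridisation control scaling, the sign turned, with a call before or after, for Adh5 (-0.04), Ncoa1 (-0.47), Ncoa2 (-0.89), Ep300 (-0.43) and Crebbp (-0.79), and with tumor 2 alone for Bhlhe40 (1.14). Without a call in either, it turned under that scaling for Aldh1a2 (-0.56), Lipe, Rdh5, Rdh14, Rxra, Ncoa3 and Meis1. With tumor 2 alone it turned in this way for Rdh10 (0.13), Adh1, Adh7, Rxrb and Ncoa3. Other settings also turned the sign of genes without a call. Among the 9 these were Rdh10 with the mean over probe sets (0.20) and Rara without tumor replicate 3 (0.05).

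Same-numbered samples did not deviate together (correlations of -0.045, 0.028 and 0.090 across genes), so the numbers do not pair them. With the replicate block, 1464 genes were higher and 1138 lower, 8 and 3 among the other retinoid genes, and 2 and 1 among the 9. Signals near or below 100, as for Crabp1, Cyp26b1, Rara, wild-type Rbp4 and tumor Crabp2, limit what can be read from these genes.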
